A study of Caenorhabditis elegans with 9 samples.

Results

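nas-9, nas-10, nas-11 and nas-33 are 4 genes of the astacin family of C. elegans, secreted zinc metalloproteases. They were chosen because they were the astacins, other than the mutated gene nas-38 itself, whose transcripts were called higher in nas-38(ok3407) larvae than in wild type larvae. The choice therefore used the ok3407 and wild type libraries, and the difference between these groups is described here without a test. The 4 genes were found by name in a table of 46699 genes, which lists 39 astacins in all. Of those 39, 32 had enough reads to be tested, the 4 genes included.

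RNA was sequenced from whole L4 larvae that were picked by hand during lethargus, the sleep-like state before the final molt. The groups were nas-38(ok3407) animals of strain HBR1010, nas-38(tm2655) animals of strain HBR1114 and N2 wild type animals, with 3 biological replicates of each. All animals fed on the bacterial strain OP50 and were kept at 20 °C, and each allele was sampled in 1 strain. Sheet names of the deposited workbook and headers in it call tm2655 a loss and ok3407 a gain of function. The series title writes ok4307 where the sample labels write ok3407, the name used here.

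Astacins are made as inactive precursors whose N-terminal propeptide has to be removed before the catalytic domain can bind its substrate. Family members act mostly outside the cell. In C. elegans NAS-36 and NAS-37 help to shed the old cuticle at each molt, DPY-31 cleaves procollagen of the cuticle, HCH-1 dissolves the eggshell at hatching, and NAS-6 and NAS-7 act in the pharynx, where the grinder is remade at each molt. nas-38 is known for its part in molting-associated sleep. No role is given here for nas-9, nas-10, nas-11 or nas-33 beyond family membership, and their sequences were not analysed here.

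Libraries held 13759541 to 40523994 gene reads, and wild type replicate 1 was the shallowest. On the first principal component of log2 CPM (reads scaled by library size, here with a prior count of 2) the ok3407 libraries lay at -67.1 to -47, while tm2655 replicate 1 lay at -1.33 and all others at 26.8 or above. On the second component, with 17.6% of the variance, wild type replicate 1 lay at -54.7 and the others at -29.6 to 38.6. tm2655 replicate 1 also stood apart on the third component (11.9%), at 66.1 against -20.1 to 5.32 for the other 8 libraries. Values of the 4 genes in tm2655 are therefore given with and without tm2655 replicate 1. The transcript of nas-38 was at 227, 375 and 337 CPM in ok3407, at 10.04, 14.4 and 7.56 CPM in tm2655, and at 134, 57.9 and 65.1 CPM in wild type. Among 16055 tested genes, 1001 (6.23%) were called between ok3407 and wild type at an adjusted p under 0.05, 3.33% of all as higher in ok3407. With TMM scaling 534 were higher and 467 lower, and with total library size alone 757 were higher and 167 lower. The count of 1001 was 521 and 299 without ok3407 replicate 1 or 2, and 385 and 123 without wild type replicate 1 or 3. Between tm2655 and wild type 1 gene was called by edgeR, 397 had an unadjusted p under 0.05 and DESeq2 called 4.

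The 4 genes are scattered in the genome. nas-9 (WBGene00003528) lies on the minus strand of chromosome V at 4836037 to 4839919. nas-10 (WBGene00003529, minus strand, 10960982 to 10964725), nas-11 (WBGene00003530, plus strand, 6713578 to 6716320) and nas-33 (WBGene00003551, minus strand, 6451811 to 6455134) are on chromosome X. These positions are those of the deposited tables, whose build is not given in the sources used here. Chromosome X held 8 of the 32 tested astacins and 14% of all tested genes. nas-11 and nas-33 were the closest pair among the 4, with 258444 bases between them, and nas-10 was 1011923 bases from its nearest astacin, nas-37. All 4 are protein-coding genes, and the deposited models give 11 exons for nas-9 and for nas-10, 12 for nas-11 and 19 for nas-33. Exon length was 1641, 1780, 1740 and 1935 bases for nas-9, nas-10, nas-11 and nas-33 in that order. Of 18202 protein-coding genes matched by name, 95.3% had an exon length divisible by 3, so most models hold coding sequence and no UTRs. The 1780 bases of nas-10 are not divisible by 3. The model of nas-10 extends farther than that of the Ensembl annotation of WBcel235, which lists 1 transcript of 10 exons. All reads counted for the 4 genes were uniquely mapped in every library that had any.

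nas-11 had the most even difference of the 4 genes. It stood at 149.7, 177 and 149.6 CPM in ok3407, at 42.1, 26.6 and 29.99 CPM in tm2655, and at 34.9, 28.8 and 26.97 CPM in wild type. The highest ok3407 library exceeded the lowest by a factor of 1.18, and no ok3407 library came near either other group. The fitted log2 fold change was 2.39 ± 0.19 for ok3407 over wild type, a ratio of 5.26. In whole larvae, fewer cells of a type and less RNA per cell cannot be told apart. The ± of a fitted change is its approximate standard error, and that of a level is the SD of 3 libraries.

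nas-10 showed the widest difference, between a transcript that was nearly undetected and one of the more abundant astacin transcripts. ok3407 libraries held 6963, 4234 and 4200 reads of it, tm2655 libraries 15, 5 and 3, and wild type libraries 38, 0 and 17. In CPM these were 247, 124 and 94.99 in ok3407, then 0.525, 0.165 and 0.103 in tm2655, and 3.00, 0 and 0.790 in wild type. The 0 in wild type replicate 2 allows up to 0.0889 CPM, the level of 3 reads there. Such limits cover counting error only. All ok3407 libraries were far above all others, and the spread among libraries with few reads was wide. The ratio of the mean CPM was 123 for ok3407 over wild type, and the fitted log2 fold change was 7.26 ± 1.08. Leaving out wild type replicate 1 gave 8.86, and leaving out wild type replicate 2 gave 6.44.

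nas-33 was higher in every ok3407 library, but by amounts that differed strongly among them. It stood at 8.02, 83.6 and 46.4 CPM in ok3407, at 2.73, 2.24 and 4.07 CPM in tm2655, and at 3.32, 2.49 and 3.67 CPM in wild type. ok3407 replicate 1 had 226 reads, against 2844 and 2050 in ok3407 replicates 2 and 3, so the group spanned a factor of 10.4. The fitted log2 fold change of ok3407 over wild type was 3.87 ± 0.75. It was 4.37 without ok3407 replicate 1 and 3.08 without ok3407 replicate 2.

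nas-9 differed least. It stood at 72.3, 53.2 and 72.4 CPM in ok3407, at 53.1, 17.8 and 22.8 CPM in tm2655, and at 26.3, 14.01 and 20.04 CPM in wild type. The ok3407 and wild type libraries did not overlap, while tm2655 replicate 1 was level with the lowest ok3407 library. The fitted log2 fold change of ok3407 over wild type was 1.72 ± 0.41, a ratio of 3.29. In all 4 genes, then, each ok3407 library lay above each wild type library, as it did in 14.4% of all tested genes. The choice used these libraries, so nothing is read from that count.

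nas-9 was also the gene nearest the limit of the choice, which was an adjusted p of 0.05 in edgeR's quasi-likelihood test over all genes. Its adjusted p was 0.046, and the nearest astacin outside the limit, nas-31, had 0.0737. nas-31 was at 10.2, 13.3 and 9.32 CPM in ok3407, 6.99, 6.52 and 6.53 CPM in tm2655, and 6.56, 5.33 and 7.72 CPM in wild type. Its 3 ok3407 libraries also lay above all wild type libraries, with a log2 fold change of 0.74 ± 0.21. The authors' deposited table for ok3407 lists 925 genes, among them 5 astacins: nas-38 and the 4 genes, with fold changes of 3.40 for nas-9, 125 for nas-10, 5.40 for nas-11 and 14.8 for nas-33. Both the choice and that table compare the same 6 libraries.

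**Figure D1:**
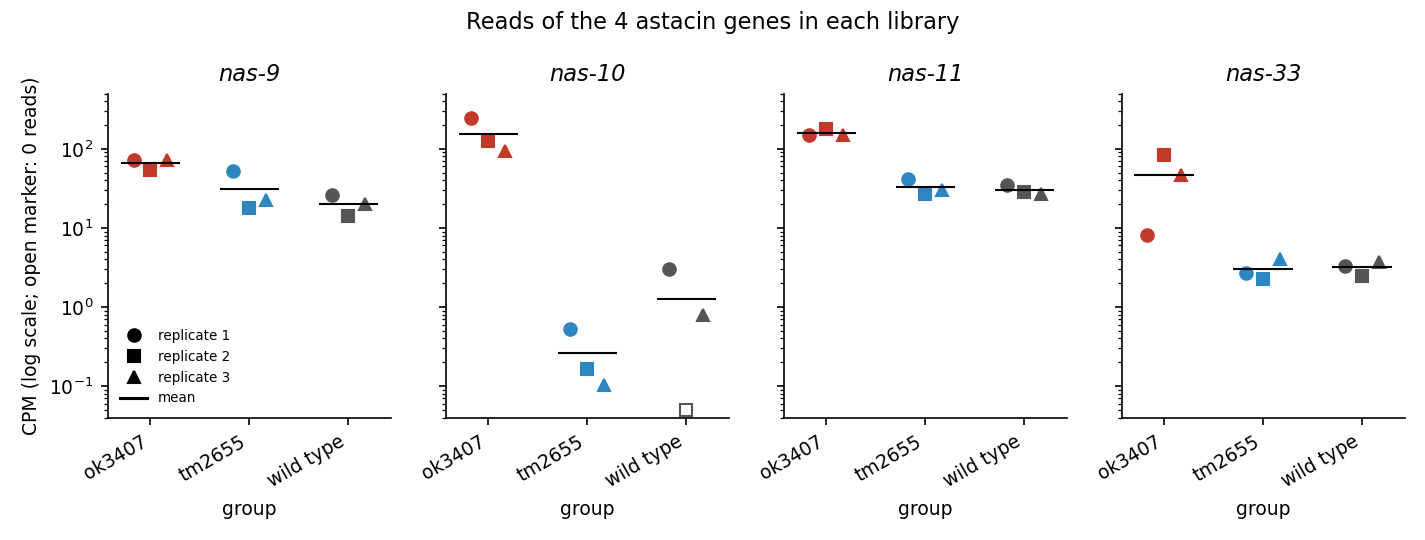
CPM of nas-9, nas-10, nas-11 and nas-33 (log scale) in the 9 libraries, by group, with marker shape for the replicate and a line at the mean of 3 libraries; the open marker stands for 0 reads. All ok3407 libraries lie above those of wild type, narrowly spread for nas-11 (149.6 to 177 CPM) and widely for nas-33 (8.02 to 83.6 CPM).

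The order of the 4 genes changed with the group when levels were taken per exon length, as the authors' RPKM (reads scaled by exon length and library size). In ok3407, nas-11 (91.2 ± 10 RPKM) and nas-10 (86.7 ± 43.3 RPKM) came first and did not differ beyond their spread. nas-9 (40.3 ± 6.21 RPKM) and nas-33 (23.9 ± 19.8 RPKM) followed, also within the spread of nas-33. In tm2655, nas-9 (17.4 ± 11.5 RPKM) and nas-11 (17 ± 4.76 RPKM) came first, ahead of nas-33 (1.41 ± 0.429 RPKM) and nas-10 (0.135 ± 0.130 RPKM). nas-9 was above nas-11 in tm2655 replicate 1 only. Without that library the tm2655 means were 14.2 RPKM for nas-11, 10.8 RPKM for nas-9, 1.45 RPKM for nas-33 and 0.0597 RPKM for nas-10, the same order as in wild type. In wild type the order was nas-11 (14.8 ± 2.03 RPKM), nas-9 (10.4 ± 2.66 RPKM), nas-33 (1.39 ± 0.187 RPKM) and nas-10 (0.617 ± 0.769 RPKM). The last pair changed places in wild type replicate 1, and nas-11 was first in all 3 wild type libraries.

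Within the 39 astacins, ranked by mean RPKM, nas-10 held rank 4 in ok3407, 32 in tm2655 and 30 in wild type. nas-11 held rank 2 in ok3407, 9 in tm2655 and 11 in wild type. nas-33 held rank 10 in ok3407 and 26 in both tm2655 and wild type, and nas-9 held 6, 8 and 13 in ok3407, tm2655 and wild type. Without tm2655 replicate 1 the tm2655 ranks were 13 for nas-9, 32 for nas-10, 10 for nas-11 and 26 for nas-33. The astacins with the highest level in wild type were toh-1, nas-30 and nas-7. toh-1 was at 90.1 ± 33.9 RPKM in ok3407 and 101 ± 9.41 RPKM in wild type. nas-30 was at 37.3 ± 13.4 RPKM in ok3407 and 45.1 ± 8.93 RPKM in wild type, and nas-7 at 41.3 ± 16.5 RPKM in ok3407 and 39.1 ± 7.36 RPKM in wild type. In ok3407, nas-11 and nas-10 thus stood within the spread of toh-1. RPKM carry no TMM factors, which shifts ok3407 upward against the CPM given here. In TMM-scaled CPM, nas-7 was at 50.3 ± 19.2 in ok3407 and 54.5 ± 7.40 in wild type.

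**Figure D2:**
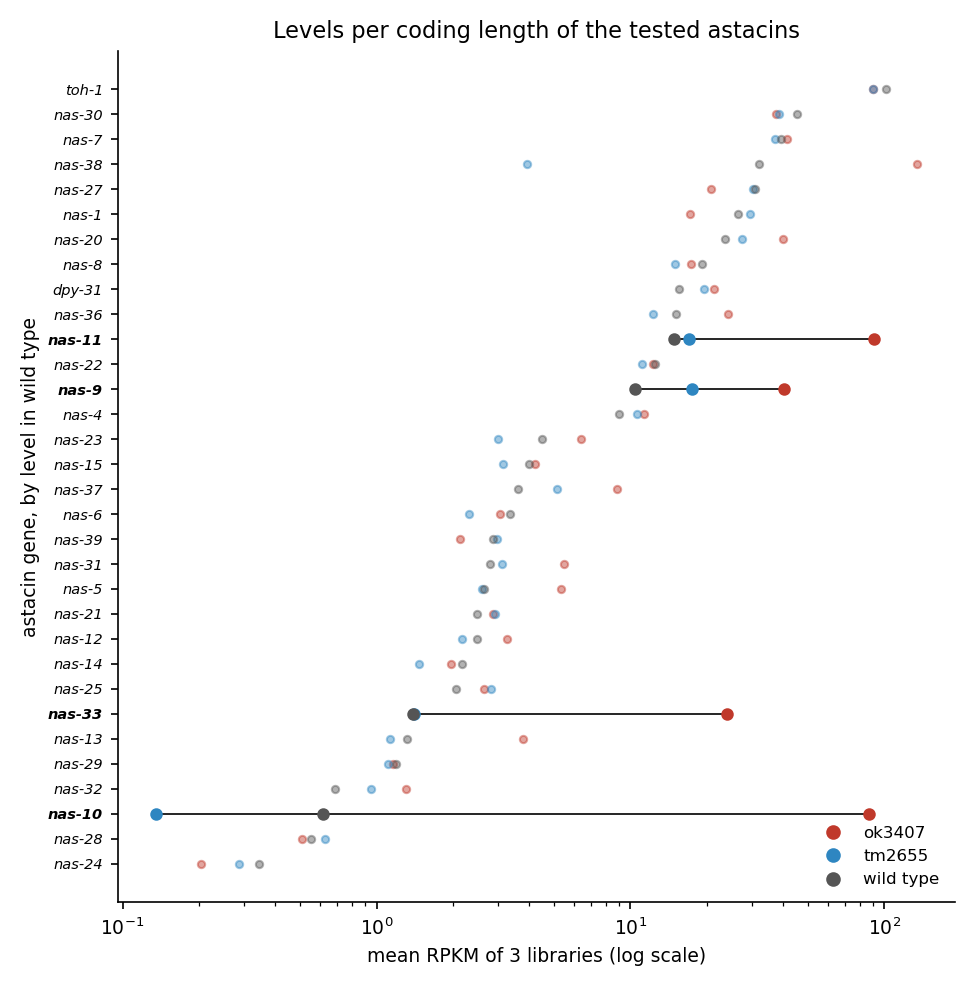
Mean RPKM of 3 libraries (log scale) of the 32 tested astacins, ordered by their level in wild type, with 1 point per group; the 4 genes are in bold with a line that joins their groups. nas-10 lies at 86.7 RPKM in ok3407, against 0.135 RPKM in tm2655 and 0.617 RPKM in wild type, and nas-33 has nearly the same level in tm2655 and wild type.

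As a share of all astacin reads, the 4 genes together took 41.9%, 31.1% and 26.6% in ok3407, 18.2%, 6.00% and 9.10% in tm2655, and 7.82%, 6.24% and 7.36% in wild type. The 34 astacins other than these and nas-38 summed to 436 to 665 CPM in ok3407, 431 to 718 CPM in tm2655 and 583 to 663 CPM in wild type. Their ranges overlapped. The 4 genes summed to 363 to 477 CPM in ok3407, 46.7 to 98.4 in tm2655 and 45.3 to 67.6 in wild type. The choice took the astacins called higher in ok3407 than in wild type and left the 34. Nothing is therefore read from the contrast between the sums in these groups.

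**Figure D3:**
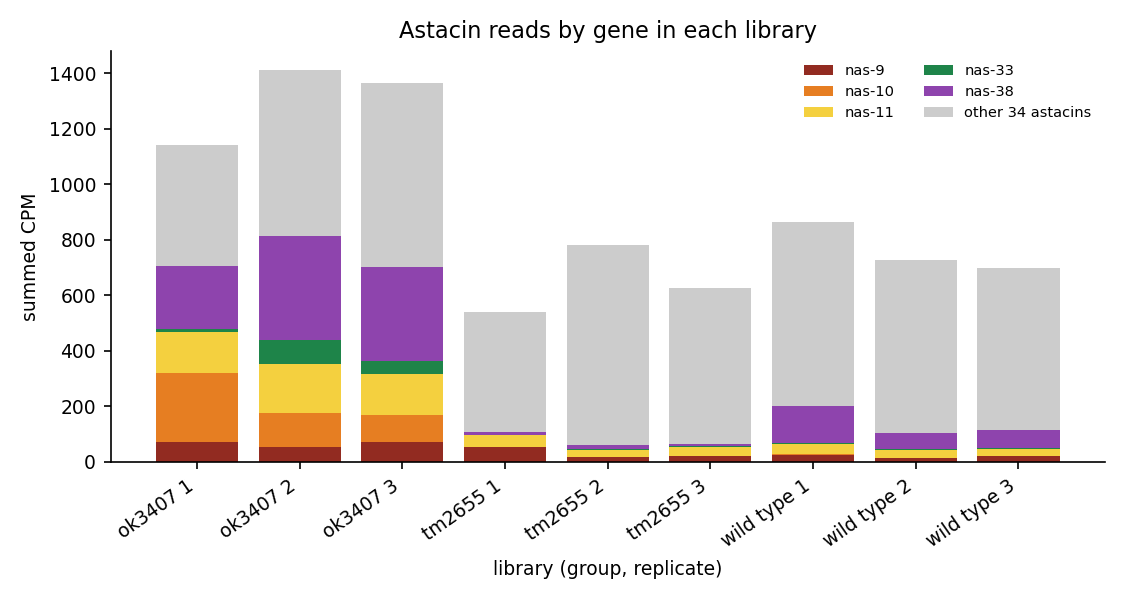
Summed CPM of the astacin genes in each library, stacked by gene, with the other 34 astacins in grey. The stacks of nas-10, nas-11 and nas-38 are tall in the ok3407 libraries, and the grey part overlaps between the groups (436 to 665 CPM in ok3407, 583 to 663 CPM in wild type).

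The comparison of tm2655 with wild type asked whether the other nas-38 allele moves these genes too. The wild type libraries were among those that chose the genes. The levels in tm2655 did not enter that contrast, but the tm2655 libraries were part of the model behind it and shared in its filter, scaling and estimate of the spread. None of the 4 genes was called by edgeR's quasi-likelihood test, and 0 of the 4 had an unadjusted p under 0.05. Of all tested genes 0.00623% were called and 2.47% had an unadjusted p under 0.05, so counts of 0 are near these shares. nas-9 had a log2 fold change of 0.64 ± 0.41, nas-10 of -1.93 ± 1.31, nas-11 of 0.12 ± 0.18 and nas-33 of -0.06 ± 0.72 (adjusted p = 0.998 for the first 3 and 0.999 for nas-33). For each of the 4 genes the tm2655 and wild type libraries overlapped, while 3.85% of all tested genes had all tm2655 libraries above wild type and 2.62% had them below. Without tm2655 replicate 1, which stood apart on the third component, the changes were 0.0186 for nas-9, -2.86 for nas-10, -0.0933 for nas-11 and 0.00806 for nas-33. For nas-10 the value was -0.337 without wild type replicate 1, the library with 38 of the 55 wild type reads, and -2.75 without wild type replicate 2, which had 0. Both nas-9 and nas-11 were at their highest of the tm2655 group in tm2655 replicate 1. The standard errors leave room for changes of more than the fitted size in each of the 4 genes, and were widest for nas-10 and nas-33. nas-38 itself, at a log2 fold change of -3.004 ± 0.39 with no overlap between the groups, missed the threshold in this comparison (adjusted p = 0.316), and it was called by the DESeq2 Wald test (adjusted p = 2.47e-12). By DESeq2, too, 0 of the 4 genes passed, where 4 of 16055 tested genes did.

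Set against tm2655, ok3407 had higher levels of the 4 genes as well. The fitted log2 fold changes were 1.08 ± 0.40 for nas-9, 9.19 ± 1.19 for nas-10, 2.27 ± 0.19 for nas-11 and 3.93 ± 0.75 for nas-33. They share the ok3407 libraries with the comparison that chose the genes and are given as a description. In each of the 4 genes the lowest ok3407 library was above the highest tm2655 library, as in 11.2% of all tested genes, by a small margin for nas-9 (53.2 CPM in ok3407 replicate 2, 53.1 CPM in tm2655 replicate 1). Without tm2655 replicate 1 the value was 1.70 for nas-9 and 10.1 for nas-10, and without ok3407 replicate 2 it was 3.16 for nas-33. nas-38 had 4.87 ± 0.42 in the same comparison.

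No other astacin passed. Of the 27 tested astacins other than nas-38 and the 4 genes, 0 were called between ok3407 and wild type by edgeR, where 6.23% of all tested genes were called, and 4 had an unadjusted p under 0.05, as had 23.6% of all tested genes. That none passed follows from the choice, which took every astacin that did. Their median log2 fold change was -0.02, with a range of -0.84 to 1.32, and the median of all tested genes was 0.03. Groups did not overlap in 6 of the 27, 3 higher and 3 lower in ok3407, against 14.4% of all genes higher and 14.5% lower. In tm2655 against wild type 1 of the 27, dpy-31, had no overlap and was higher in tm2655. Of all tested genes 3.85% were higher and 2.62% lower in this way, so that count is near these shares. In ok3407 against tm2655, 2 of the 27 lay higher and 1 lower without overlap, against 11.2% and 12.3% of all tested genes. Between tm2655 and wild type 0 of the 27 were called by edgeR, 0 had an unadjusted p under 0.05 and 0 were called by DESeq2 (median log2 fold change -0.14). Of all tested genes edgeR called 0.00623% there, 2.47% had an unadjusted p under 0.05 and DESeq2 called 4 genes. Between ok3407 and tm2655 0 of the 27 were called by edgeR, while 5 had an unadjusted p under 0.05, as had 17.6% of all tested genes. Of all tested genes 4.02% (645) were called there, 2.33% as higher and 1.69% as lower in ok3407. That count was 288 without ok3407 replicate 2, and 280 and 222 without tm2655 replicate 2 or 3. With no scaling factor beyond total library size the split was 464 higher and 139 lower, against 374 and 271.

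Astacins with a known role were compared in the same model, and each had an adjusted p above 0.05 in both comparisons. nas-37, one of the proteases that digest the old cuticle, was at 19.9 ± 4.22 CPM in ok3407, 12.9 ± 7.19 CPM in tm2655 and 9.40 ± 4.5 CPM in wild type (log2 fold change of ok3407 over wild type 1.10 ± 0.50). nas-36, which acts with it, was at 44.2 ± 12.5 CPM in ok3407, 25.2 ± 12.9 CPM in tm2655 and 31.1 ± 9.36 CPM in wild type. The procollagen protease gene dpy-31 was at 38.1 ± 8.65 CPM in ok3407, 38.4 ± 1.15 CPM in tm2655 and 31.9 ± 3.21 CPM in wild type. The pharyngeal astacin nas-7 was at 50.3 ± 19.2 CPM in ok3407, 49.6 ± 14.5 CPM in tm2655 and 54.5 ± 7.40 CPM in wild type, and nas-6 at 3.39 ± 1.68, 2.94 ± 2.19 and 4.31 ± 1.71 CPM in these groups. Without tm2655 replicate 1 the tm2655 means were 10.4 CPM for nas-37, 30.2 CPM for nas-36, 37.9 CPM for dpy-31, 55.9 CPM for nas-7 and 3.56 CPM for nas-6. The hatching enzyme gene hch-1 had 9 reads over the 9 libraries and was not tested.

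**Figure D4:**
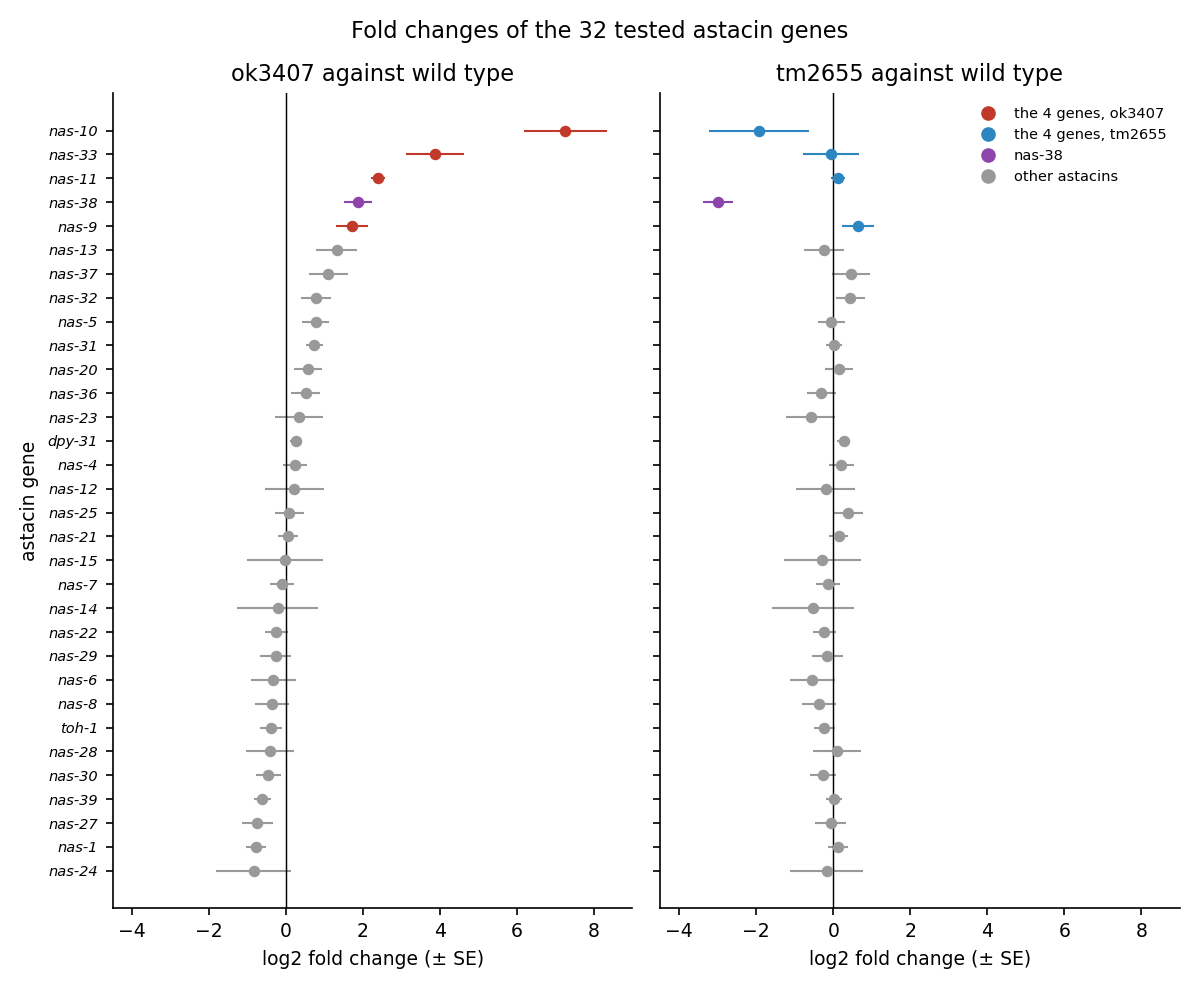
Log2 fold changes (points, with bars of 1 approximate SE) of the 32 tested astacins in ok3407 against wild type on the left and in tm2655 against wild type on the right, ordered by the left panel. The 4 genes and nas-38 lie at 1.72 to 7.26 on the left, while on the right nas-38 lies at -3.004 and the 4 genes at -1.93 to 0.64.

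Within the groups nas-33 had lower correlations with the other 3 genes than these had with each other. In ok3407, nas-10 was highest in replicate 1, where nas-33 was lowest, and nas-9 and nas-11 differed from their group means by at most 0.29 and 0.16 in log2 CPM. ok3407 replicate 2 held the highest deviation of that group for nas-11 (0.16) and nas-33 (1.41), and the lowest for nas-9 (-0.29). In tm2655 and in wild type, nas-9, nas-10 and nas-11 were each highest in replicate 1, and nas-33 was highest in replicate 3. Over the deviations of the 9 libraries from their group means, the correlation was 0.75 between nas-9 and nas-11, 0.67 between nas-9 and nas-10 and 0.45 between nas-10 and nas-11. nas-33 had -0.11 with nas-9, -0.11 with nas-10 and 0.23 with nas-11. These values are a description over 9 libraries from which 3 group means were removed, and all genes of a library share its depth and scaling. The largest deviations of nas-10, 2.44 and -3.04 in wild type replicates 1 and 2, came from 38 and 0 reads.

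**Figure D5:**
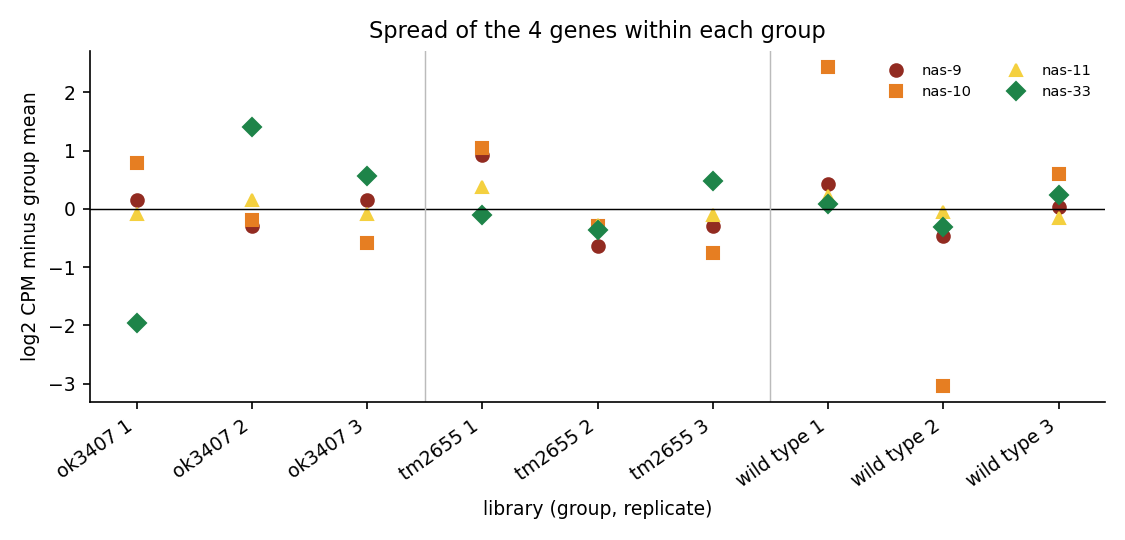
Deviation of log2 CPM from the mean of its group for the 4 genes in each of the 9 libraries, with the groups parted by vertical lines. nas-33 lies lowest in ok3407 replicate 1 (-1.96), where nas-10 lies highest of its group (0.79), and nas-11 stays within -0.28 to 0.38 throughout.

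The genes whose levels over the 9 libraries ran most like each of the 4 differed from gene to gene. They were sought among the 13995 genes whose mean reached 1 CPM, and a correlation over these libraries mostly reads the difference between ok3407 and the rest. For nas-11 they were tep-1 (r = 0.994), which encodes a thioester-containing protein of the complement type, catp-7 (r = 0.994), a cation-transporting ATPase gene, and W09D12.1 (r = 0.993). tep-1 averaged 967 CPM in ok3407, 129 CPM in tm2655 and 122 CPM in wild type. For nas-10 they were the caenacin cnc-10 (r = 0.993), C42D4.3 (r = 0.989) and gcy-5 (r = 0.989), which encodes a receptor guanylyl cyclase. gcy-5 averaged 261 CPM in ok3407, 7.43 CPM in tm2655 and 10.2 CPM in wild type.

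For nas-33 the most alike were grl-14 (r = 0.971), of the hedgehog-related family, cutl-23 (r = 0.970), a cuticlin-like gene, and F45D3.4 (r = 0.969). cutl-23 averaged 64.6 CPM in ok3407, 24.2 CPM in tm2655 and 23.3 CPM in wild type. For nas-9 they were C31B8.8 (r = 0.981), Y43C5A.3 (r = 0.978) and C45G9.6 (r = 0.978). C31B8.8 averaged 33.3 CPM in ok3407, 18.1 CPM in tm2655 and 10.8 CPM in wild type. None of the 12 genes appeared for more than 1 of the 4. The highest correlations lay close together for each of the 4, so nothing is read from that.

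By deviations from the group means, the most alike genes were others again. They were T26C5.4, Y25C1A.8 and rom-4 for nas-9 (r = 0.982 to 0.970), and nlt-1, F52G3.1 and K04C1.2 for nas-10 (r = 0.980 to 0.976). For nas-11 they were F37A4.2, F53H2.1 and C52E2.4 (r = 0.958 to 0.956), and for nas-33 trpl-1, poml-2 and aagr-1 (r = 0.979 to 0.971). As the best of 13995 genes over 9 libraries, these are a description of the libraries.

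Among the neighbours of the 4 genes, lge-1 rose in ok3407. It lies on the plus strand of chromosome X at 10966558 to 10969780, next to the start of nas-10 on the other strand and 1833 bases from its model. lge-1 stood at 8.80, 12.97 and 7.85 CPM in ok3407, 1.71, 2.67 and 3.62 CPM in tm2655 and 2.61, 3.35 and 2.46 CPM in wild type (log2 fold change of ok3407 over wild type 1.81 ± 0.33, adjusted p = 0.0163 by edgeR). The 3 ok3407 libraries were above all others. With exon reads only the log2 fold change was 3.09. The call was lost when ok3407 replicate 2 was left out (adjusted p = 0.0617), and likewise for wild type replicate 1 (0.0605) or 3 (0.0859). On its other side nas-10 is followed by K09C8.2, with 2 reads over all libraries, and 2 RNA genes inside its model, K09C8.11 and K09C8.t1, had 0 reads.

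The nearest genes of nas-9 and nas-11 did not pass. C37H5.5, 103 bases from nas-9, had a log2 fold change of -0.04 in ok3407 over wild type (adjusted p = 0.833 by edgeR), and cwp-1 on the other side had 1 read in all. acr-3, 799 bases from nas-11, had 0.65 (adjusted p = 0.532), and smf-2, 38 bases from it on the other strand, had 20 reads in all. Beside nas-33, K10C2.6 ends 29 bases past the model of nas-33 on the opposite strand and had too few reads to be tested. It held 2, 35 and 16 reads in ok3407 replicates 1, 2 and 3, 0, 0 and 3 in tm2655 and 0, 0 and 0 in wild type, lowest in the ok3407 library with the fewest nas-33 reads. The deposited models of this pair do not overlap. In the Ensembl annotation of WBcel235, however, nas-33 starts at 6451698, and the deposited model of K10C2.6 ends at 6451782. If both use the same coordinates, these spans overlap. Of nas-33 exon reads in ok3407, 90.2% to 92.8% crossed an exon junction. The strand setting of the counting is not given in the sources used here. Whether the few reads counted for K10C2.6 came from nas-33 transcripts was not tested. On the other side of nas-33, K04E7.4 had 0 reads.

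Reads of the 4 genes fell mostly in exons in each group. Intervals below pool the reads of 3 libraries, cover counting error only and leave out the spread between libraries. In ok3407, 3.34% of 15397 nas-10 reads were in introns (95% Wilson interval 3.07% to 3.63%), against 1 of 23 reads in tm2655 and 0 of 55 in wild type, where up to 6.53% is allowed. nas-11 had 3.16% in ok3407 (2.91% to 3.44%, with single libraries at 2.65%, 3.43% and 3.25%), 3.53% in tm2655 (2.92% to 4.27%) and 4.32% in wild type (3.51% to 5.30%). nas-9 had 2.65%, 2.83% and 4.20% in ok3407, tm2655 and wild type, and nas-33 had 3.67%, 1.51% and 3.41%. Of exon reads of nas-33, the gene with 19 exons, 90.2% to 92.8% crossed an exon junction in ok3407, 83.3% to 89.1% in tm2655 and 84.6% to 94.9% in wild type.

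Genes of molting and cuticle processing, the setting in which astacins such as NAS-36, NAS-37 and DPY-31 act, were counted from a list written from general knowledge. Of 56 tested genes 10 rose in ok3407 against wild type, 1 fell and 45 did not pass (median log2 fold change 0.06). The called genes made up 19.6% of the list and 6.23% of all tested genes. The list was written with earlier results of these data known, so its shares are given as a description. dex-1, which encodes a transmembrane matrix protein, was at 198 ± 84.3 CPM in ok3407 and 44.3 ± 7.63 CPM in wild type (2.16 ± 0.34, adjusted p = 0.0124 by edgeR). mlt-3, named for its molting defect, was at 59.6 ± 25.7 CPM in ok3407 and 10.8 ± 2.06 CPM in wild type (2.48 ± 0.37, adjusted p = 0.00959). The kinase gene nekl-2 (1.14 ± 0.21) and pan-1 (0.63 ± 0.14) also rose. The collagen gene dpy-17 fell to 1.37 ± 0.580 CPM in ok3407, against 4.55 ± 0.442 CPM in wild type (-1.73 ± 0.33, adjusted p = 0.0195).

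These calls depended on single libraries. In place of 11 calls the list had 4, 3 and 6 without ok3407 replicate 1, 2 or 3, 6 and 7 without tm2655 replicate 2 or 3, and 3, 7 and 0 without wild type replicate 1, 2 or 3. mlt-3 and dex-1 kept their calls in every such fit except that without wild type replicate 3 (adjusted p = 0.0613 for mlt-3 and 0.0667 for dex-1). nekl-2 and dpy-17 also lost theirs without ok3407 replicate 2 (adjusted p = 0.0639 and 0.0646) or wild type replicate 1 (0.0583 and 0.0609), and pan-1 without these and without ok3407 replicate 1 (0.0804). Between tm2655 and wild type 0 of the 56 passed by edgeR and 0 had an unadjusted p under 0.05 (median -0.09). Of all tested genes 0.00623% were called there and 2.47% had an unadjusted p under 0.05. Between ok3407 and tm2655 5 rose and 1 fell, 10.7% of the list, where 4.02% of all tested genes were called. The 6 calls numbered 4 without tm2655 replicate 1 and 3 without tm2655 replicate 3.

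In the ok3407 libraries, where the 4 genes were high, marker sums of epidermis, intestine, body wall muscle and germ line were lower than in all wild type libraries. The 10 epidermal markers summed to 1495 to 2188 CPM in ok3407, 2197 to 3314 CPM in tm2655 and 2540 to 3325 CPM in wild type. Singly they went both ways: 3 had a positive and 7 a negative log2 fold change in ok3407 against wild type (-1.11 to 3.26), with 2 called lower, and 5 were positive and 5 negative against tm2655. The 8 intestinal markers summed to 3901 to 4246 CPM in ok3407, 6061 to 8452 CPM in tm2655 and 5819 to 8669 CPM in wild type, and the 7 markers of body wall muscle to 7891 to 9228, 10580 to 13180 and 11660 to 14440 CPM in these groups. Ranges of ok3407 and wild type overlapped for seam cells (21.6 to 44.5 CPM in ok3407, 15.8 to 27.6 CPM in wild type), pharynx muscle, pharyngeal gland, neurons and glia. Those of the 9 germ line markers (2004 to 2156 CPM in ok3407, 2263 to 2529 CPM in wild type) did not, and those of 8 vulval markers just overlapped (35.3 to 55.5 CPM in ok3407, 27.9 to 35.5 CPM in wild type). Singly, 1 of 7 tested intestinal, 4 of 7 muscle and 0 of 9 germ line markers were called lower against wild type. Of all tested genes 2.91% were called lower there. All 7 intestinal and all 7 muscle markers had a negative log2 fold change, as had 6 of 9 in germ line. No list was at 0 as a whole, and 1 of the 7 glial markers had 0 reads throughout. The part of these differences in the levels of the 4 genes was not tested.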

How the data were processed

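Poly(A) RNA of whole larvae was sequenced as stranded paired-end reads of 75 cycles, per the labels' protocols. The authors deposited raw counts per gene and library, as total gene reads with their exon, intron, exon junction and unique parts, per the file headers. They also deposited RPKM, reads in exons scaled by exon length and library size, per the file headers. The authors' deposited comparisons hold a signed fold change, treated here as a score, from an EDGE test with tagwise dispersions. Not given in the sources used here are the aligner, the counter, the genome build and the annotation. Compared with WBcel235 (Ensembl), 41430 genes were matched by name, of which 61.3% had the same start and end.

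Total gene reads of 46699 genes were filtered with filterByExpr, which kept 16055, and fitted with edgeR (glmQLFit with robust estimation, TMM scaling and a term for each group, over all 9 libraries) and tested by quasi-likelihood with Benjamini-Hochberg adjustment over all tested genes. CPM are TMM-scaled. Called means an adjusted p under 0.05. The approximate SE of a change is its absolute size divided by the square root of F. Exon and intron reads summed to total reads in every gene. The p-values rest on 3 biological replicates per group, as the labels state. The 4 genes and all lists were chosen with earlier results of these data known, and the molting and marker lists were written from general knowledge. Named genes were nas-38, the astacin just outside the threshold, the 3 most alike genes by each measure, adjacent and overlapping genes, up to 4 called molting genes per direction by p, the 3 astacins highest in wild type and 6 astacins of known role.

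The model was tested on simulated data. Alternatives were RLE, upper quartile and no scaling factors, 2 other filters, a replicate block, DESeq2, fits of 6 libraries, exon or unique reads only, and fits without each library. Software comprised edgeR 4.0.16, DESeq2 1.42.0 and limma 3.58.1 under R 4.3.3, and scipy 1.17.1, matplotlib 3.10.9, numpy 2.4.6 and pandas 2.3.3 under Python 3.11.15.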

Additional observations from a re-analysis of the deposited data

How the results depend on the processing

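The log2 fold changes of the 4 genes in ok3407 against wild type stayed positive under every alternative run. This contrast chose the genes, and each ok3407 library lay above each wild type library. Leaving out a library could therefore not turn the sign, and nothing is read from it. Without 1 library they spanned 1.5 to 1.96 for nas-9, 6.44 to 8.86 for nas-10, 2.29 to 2.51 for nas-11 and 3.08 to 4.37 for nas-33. Against tm2655 they spanned 0.8 to 1.7, 8.69 to 10.1, 2.14 to 2.49 and 3.16 to 4.43. In tm2655 against wild type they spanned 0.0186 to 0.92 for nas-9, -2.86 to -0.337 for nas-10, -0.0933 to 0.254 for nas-11 and -0.339 to 0.114 for nas-33, so the last 2 changed sign, and none was called under any alternative. Counts of called genes without 1 library spanned 123 to 1163 in ok3407 against wild type, lowest without wild type replicate 3, 0 to 1 in tm2655 against wild type and 222 to 623 in ok3407 against tm2655. The molting list spanned 0 to 9 in ok3407 against wild type and 3 to 7 against tm2655. The DESeq2 Wald test called 2033, 4 and 1471 genes in these 3 comparisons, where edgeR called 1001, 1 and 645, and 14 molting genes in ok3407 against tm2655, where edgeR called 6. With exon reads only lge-1 had 3.09 in ok3407 against wild type, where all gene reads gave 1.81. Fits of 6 libraries called 6 molting genes in ok3407 against wild type and 390 genes in ok3407 against tm2655. In tm2655 against wild type 0 genes were called with the filter of 5 CPM, with exon reads only and with the replicate block. Scaling by total library size alone moved the median log2 fold change of all genes by 0.211 in ok3407 against wild type and by 0.173 against tm2655, and gave the 4 genes 1.95, 7.48, 2.61 and 4.11 (nas-9, nas-10, nas-11, nas-33) against wild type. The cause of these differences was not tested. Correlations of same-numbered libraries ran from -0.245 to 0.399, and those of differently numbered libraries of other groups from -0.403 to 0.332. These values cannot decide whether the numbers pair libraries, and the labels state no pairing. With the replicate block nas-10 had 7.5 and nas-33 had 3.62 in ok3407 against wild type. nas-9 had 1.77 ± 0.24 with the block and 1.72 ± 0.41 without it. The 55 reads of nas-10 in wild type and 23 in tm2655 limit what can be said of it between these groups.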
